A study of Mus musculus with 18 samples.

Results

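The network described here is 7 genes, Myc, Max, Mxd1, Mxi1, Mxd3, Mxd4 and Mnt, out of 22078 genes in the deposited tables. They were matched by Entrez identifier and mouse symbol, and all 7 are in both tables. The members were chosen with earlier results of these data known. RNA was sequenced from mouse cortical astrocytes in culture, in 18 libraries from 6 groups of 3. At 90 min of ligand the groups were cells transfected with plasmids for hM3Dq, rM3Ds or hM4Di and, as their control, cells with the fluorescent protein EGFP. At 3 days they were cells with hM3Dq and, as their control, cells with the fluorescent protein mCherry. hM3Dq, rM3Ds and hM4Di are designer receptors (DREADDs) that couple to the Gq, Gs and Gi classes of G protein. Cells of every group, controls included, received 8 µM deschloroclozapine (DCZ), a DREADD ligand, for 90 min, 7 days after transfection with the reagent HilyMax in serum-containing medium. The 3-day cells were then kept in medium without DCZ. No group had a receptor without DCZ, and the labels give no strain, sex or age, no promoter for the plasmids and no share of transfected cells. They also do not say that the 3 libraries of a group are separate cultures, so p-values measure only the spread between libraries, which may be technical.

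Myc is a transcription factor that binds DNA as a dimer with Max, mostly at the E-box CACGTG, and raises transcription of genes for ribosome production, nucleotide synthesis and cell growth. The Mxd proteins and Mnt bind the same sites with Max and recruit Sin3 and histone deacetylases, so the dimers compete. Myc is an immediate early gene with a short-lived mRNA that mitogens and calcium signals raise within an hour or so, and it favours proliferation and holds back differentiation in glial precursors. Mxd1, Mxi1 and Mxd4 are usually high in cells that leave the cycle, whereas Mxd3 is a member expressed in S phase. Mnt and Max are expressed in most cells.

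The upstream sequences of the antagonists are shown because the E-box, the site of the network's own dimers, lies in front of some members and not others. Windows of 250 bases before an annotated transcript start came from RefSeq's table on GRCm38.p6, with 8 windows for 6 members, while the counts were made on mm39. Myc had no window there, so its upstream sequence was not searched. An E-box was found in 2 of these 8 windows, against 6.02% of 32851 mouse promoter windows of the same length. In the sequences below, each 5′ to 3′ on the gene's strand, capitals mark the E-box, which begins 219 bases before the start of Mxd4 (chr5:34187711-34187960, minus strand) and 123 bases before that of Mnt (chr11:74830674-74830923, plus strand). The window of Mxd1 (chr6:86669160-86669409, minus strand) holds none and is given for comparison.
Mxd4: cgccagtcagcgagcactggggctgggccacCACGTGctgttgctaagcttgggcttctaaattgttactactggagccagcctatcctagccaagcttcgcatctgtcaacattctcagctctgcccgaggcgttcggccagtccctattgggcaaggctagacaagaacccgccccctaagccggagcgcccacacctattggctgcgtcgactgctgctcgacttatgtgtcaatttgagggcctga
Mnt: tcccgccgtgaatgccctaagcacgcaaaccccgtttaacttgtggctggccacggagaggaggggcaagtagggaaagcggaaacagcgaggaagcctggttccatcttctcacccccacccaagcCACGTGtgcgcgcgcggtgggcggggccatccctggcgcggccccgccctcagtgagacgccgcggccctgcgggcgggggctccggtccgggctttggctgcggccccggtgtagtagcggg
Mxd1: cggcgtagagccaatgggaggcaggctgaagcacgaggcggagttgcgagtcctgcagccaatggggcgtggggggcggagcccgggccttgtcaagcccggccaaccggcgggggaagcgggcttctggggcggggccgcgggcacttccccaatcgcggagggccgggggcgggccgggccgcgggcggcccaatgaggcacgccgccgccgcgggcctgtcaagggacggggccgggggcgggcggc
None of the 8 windows, which leave out Myc, held the cAMP response element TGACGTCA, the AP-1 site TGAGTCA or the E2F sites TTTCCCGC and TTTGGCGC on either strand. All promoter windows held them in 1.55%, 4.46%, 0.895% and 0.417% of cases. A match is a description of letters and not of binding.

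Library totals were 1.61e+07 to 2.52e+07 estimated counts at 90 min and 1.66e+07 to 1.97e+07 at 3 days, so that 3 counts stood for 0.119 to 0.187 counts-per-million units (CPM). Levels below are CPM on TMM-scaled library sizes, within a table, since the 2 tables were normalised separately. All 12 astrocyte markers were present in every group, with summed levels of 557 to 1120 CPM at 90 min and 752 to 896 CPM at 3 days. They were uneven: group means at 90 min ran from 242 to 283 CPM for Sox9 and from 2.53 to 9.18 CPM for Gfap. The highest Gfap mean, in EGFP cells, came from libraries of 2.00 to 23.2 CPM. S100b averaged 61.6 CPM in rM3Ds cells and 2.72 to 4.19 CPM in the other groups at 90 min. Its rM3Ds libraries ran from 3.25 to 94.5 CPM, so that mean does not hold for each of them. Fibroblast and mural markers summed to more, 1773 to 3204 CPM at 90 min and 2363 to 3075 CPM at 3 days. Col1a1 was the largest of them, with group means of 1059 to 1581 CPM at 90 min, whereas those of Lum were 1.39 to 2.08 CPM. Such sums are not scaled for transcript length and do not give the shares of cell types. Microglia markers summed to at most 9.56 CPM at 90 min. On the first principal component, rM3Ds replicates 2 and 3 and EGFP replicate 1 stood apart at 90 min, and mCherry replicate 3 stood apart at 3 days. Where a member's fold change over EGFP changed sign without the 3 libraries at 90 min, the value without them follows it. Leaving them out keeps only replicate 1 of rM3Ds and replicates 2 and 3 of EGFP, so rM3Ds values without them rest on a single library.

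Myc mRNA was higher in hM3Dq cells at 90 min. It stood at 39.5, 41.9 and 32.7 CPM in the 3 hM3Dq libraries, against 13.4, 16.7 and 14.4 CPM in the 3 EGFP libraries. Every hM3Dq library was above every EGFP library, and these levels rest on 638 to 692 counts per hM3Dq library and 250 to 291 counts per EGFP library. The log2 fold change was 1.36 ± 0.14 (SE; 95% interval 1.05 to 1.67), with an adjusted p of 0.000564 from edgeR's quasi-likelihood test. Myc was the only one of the 7 members to be called, at an adjusted p below 0.05, in a comparison that called 0.788% of 13584 genes, 0.758% upwards and 0.0294% downwards. Its p was number 21 in order among all genes tested, and 2 members, Myc and Mxd1, had an unadjusted p below 0.05, against 7.94% of genes. With any one of the 6 libraries left out the log2 fold change lay between 1.29 and 1.47, and without the 3 libraries that stood apart it was 1.28 (adjusted p = 0.0064). With the replicate number as a block in the fit of 12 libraries, 66 genes were called for hM3Dq over EGFP, against 107 without it, and Myc kept its call (adjusted p = 0.000549). Fos, an immediate early gene, had a log2 fold change of 2.01 ± 0.16 in the same comparison (adjusted p = 6.18e-05). In bulk RNA a change in the number of cells that express a gene and a change in RNA per cell cannot be told apart.

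**Figure D1:**
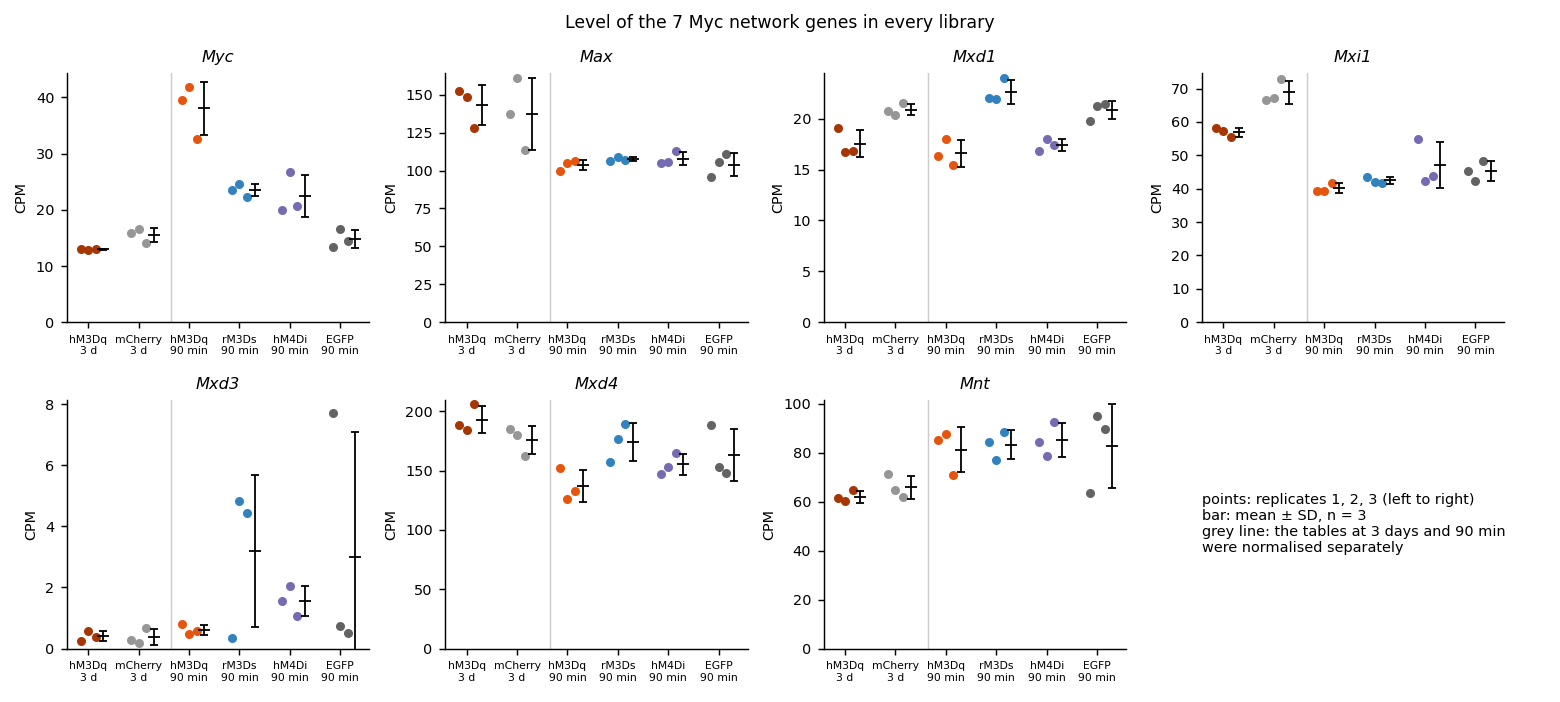
Level of each network gene in every library (CPM, y axis) by group (x axis), with points for libraries and bars for the mean ± SD of 3; the lower arm of the EGFP bar for Mxd3 is cut at 0. The hM3Dq points for Myc lie at 32.7 to 41.9 CPM at 90 min, above all EGFP points at 13.4 to 16.7 CPM, whereas the points for Max overlap.

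Myc was also above its control in every library of the other 2 receptors, without passing the test. It stood at 23.6, 24.6 and 22.4 CPM in rM3Ds libraries and at 19.98, 26.7 and 20.6 CPM in hM4Di libraries, against 13.4 to 16.7 CPM in EGFP libraries. Neither set of libraries overlapped EGFP, and the rM3Ds and hM4Di libraries overlapped each other. The log2 fold change was 0.67 ± 0.14 for rM3Ds over EGFP (95% interval 0.36 to 0.97; unadjusted p = 0.000538, adjusted p = 0.32), where edgeR called 0 of 7 members and 0.0147% of all genes. It was 0.60 ± 0.14 for hM4Di over EGFP (95% interval 0.29 to 0.90; unadjusted p = 0.00117, adjusted p = 0.774), where edgeR called 0 of 7 members and 0% of all genes. In both comparisons the DESeq2 Wald test called Myc, and no other member, with an adjusted p of 0.0134 for rM3Ds and 0.0491 for hM4Di. At an unadjusted p below 0.05 there was 1 member for rM3Ds, against 4.23% of all genes, and there were 2 for hM4Di, against 5.48%. The 3 receptors share the EGFP libraries, so a low or high EGFP library moves all 3 fold changes together.

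The receptors were also set against each other in 3 pairs, in the same fit of 12 libraries, so EGFP libraries enter the estimate of the spread. Over hM4Di, Myc was higher in hM3Dq cells by 0.76 ± 0.14 on the log2 scale (95% interval 0.46 to 1.06; adjusted p = 0.0272), where 1 of 7 members and 0.802% of genes were called. This call was lost without hM4Di replicate 1 (adjusted p = 0.076), hM4Di replicate 3 (0.139), hM3Dq replicate 1 (0.155) or hM3Dq replicate 2 (0.154), and in a fit of these 2 groups alone (0.057). Over rM3Ds, the hM3Dq libraries were all higher, with a log2 fold change of 0.69 ± 0.14 (95% interval 0.39 to 0.99) and an adjusted p of 0.0509, where edgeR called 0 of 7 members and 0.67% of genes. That p lay just above the threshold, and the unadjusted p was below 0.05 for 3 members, against 14.2% of genes. DESeq2 called Myc (adjusted p = 0.00141) and Mxd1 here. Myc was also called in a fit of these 2 groups alone (adjusted p = 0.0439), with no filter on low counts (0.0496), with a replicate block (0.0334) and without rM3Ds replicate 1 (0.0409). It was not called without any other single library of these 2 groups, where its adjusted p lay between 0.0572 and 0.242. Nor was it called without the 3 libraries that stood apart, but rM3Ds then had replicate 1 alone. rM3Ds and hM4Di libraries overlapped for Myc, with a log2 fold change of 0.07 ± 0.14 (95% interval -0.23 to 0.37; adjusted p = 0.876), where 0 of 7 members passed edgeR's test, against 0.0147% of genes. There 1 member, Mxd1, had an unadjusted p below 0.05, against 9.97% of genes, and DESeq2 called it.

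At 3 days Myc was not higher in hM3Dq cells than in their control. It stood at 13.1, 12.8 and 13.0 CPM in hM3Dq libraries, against 16.0, 16.6 and 14.1 CPM in mCherry libraries. All 3 hM3Dq libraries lay below all 3 mCherry libraries, with the mCherry ones further apart from each other. The log2 fold change was -0.26 ± 0.11 (95% interval -0.51 to -0.0071; unadjusted p = 0.0452, adjusted p = 0.411). Of the 6 members tested at 3 days, edgeR and DESeq2 called 0 and 3 had an unadjusted p below 0.05, in a comparison where edgeR called 0% of 12807 genes and 12% had such a p. Without mCherry replicate 3, 9.72% of genes were called, Myc among them (log2 fold change -0.32, adjusted p = 0.0437).

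The hM3Dq effect on Myc, each time against its own control, was lower at 3 days than at 90 min by an interaction test. The effect at 3 days minus that at 90 min was -1.61 ± 0.18 on the log2 scale (95% interval -2.0 to -1.23; adjusted p = 0.000936). It was number 13 by p among 13391 genes, and 1 of 7 members was called, in a comparison that called 0.396% of genes. With any one of the 12 libraries left out it lay between -1.72 and -1.54 and was called each time. The control plasmid also differs between the times, so time and control cannot be told apart in this difference. Mxd4 had an interaction of 0.39 ± 0.16 (unadjusted p = 0.0298, adjusted p = 0.467) and the others were nearer 0 or, for Mxd3, within its wide error.

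**Figure D2:**
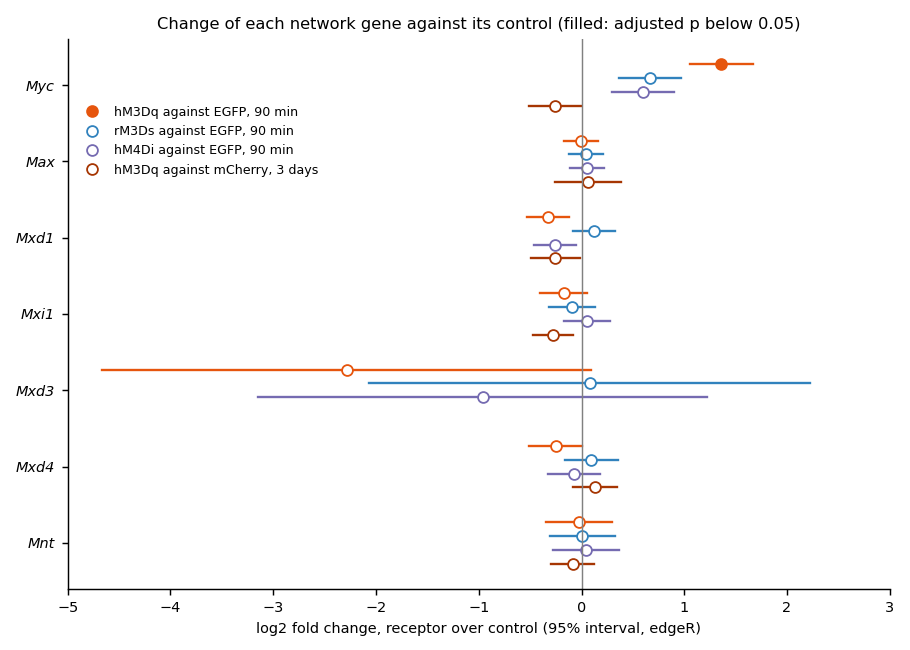
Log2 fold change of each network gene, receptor over its control (x axis, points, with 95% intervals from edgeR as lines), for 3 receptors at 90 min and for hM3Dq at 3 days; filled points are called. Myc with hM3Dq at 90 min, at 1.36, is the only filled point, and the intervals of Mxd3 are the widest.

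Max, the shared dimer partner, was called in none of the 8 comparisons. It stood at 99.9, 105 and 106 CPM in hM3Dq libraries, at 107, 109 and 107 CPM in rM3Ds libraries and at 105, 105 and 113 CPM in hM4Di libraries, against 95.7, 106 and 111 CPM in EGFP libraries. All 3 receptor groups overlapped EGFP, and the interval of the hM3Dq log2 fold change over EGFP ran from -0.17 to 0.16. The log2 fold change was 0.05 for rM3Ds and 0.05 for hM4Di, and -0.03 and -0.02 without the 3 libraries that stood apart. At 3 days Max averaged 143 ± 13.2 CPM in hM3Dq cells and 137 ± 23.7 CPM in mCherry cells (SD, n = 3 each), with a log2 fold change of 0.06.

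Among the antagonists, Mxd1 was below EGFP in every hM3Dq library at 90 min, without passing the test. It stood at 16.3, 18.03 and 15.5 CPM in hM3Dq libraries and at 16.9, 18.01 and 17.4 CPM in hM4Di libraries, against 19.8, 21.2 and 21.4 CPM in EGFP libraries. The rM3Ds libraries, at 22.1, 21.9 and 24.0 CPM, were the highest and also did not overlap EGFP. The log2 fold change over EGFP was -0.33 ± 0.09 for hM3Dq (95% interval -0.53 to -0.13; unadjusted p = 0.00429, adjusted p = 0.227), -0.26 ± 0.09 for hM4Di (adjusted p = 0.833) and 0.12 ± 0.09 for rM3Ds (adjusted p = 1). Between receptors, hM3Dq over rM3Ds was -0.45 ± 0.09 (adjusted p = 0.0552; 0.0329 without rM3Ds replicate 1, and 0.00306 by DESeq2). rM3Ds over hM4Di was 0.38 ± 0.09 (adjusted p = 0.216; 0.0356 by DESeq2). At 3 days Mxd1 stood at 19.1, 16.7 and 16.8 CPM in hM3Dq libraries, against 20.8, 20.4 and 21.5 CPM in mCherry libraries, and the groups did not overlap. That log2 fold change was -0.25 ± 0.10 (unadjusted p = 0.0386, adjusted p = 0.398), and its difference from the effect at 90 min was 0.08 ± 0.14 (adjusted p = 0.854).

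Mxi1, which like Mxd1 recruits Sin3, was also below its control in every hM3Dq library at both times. At 90 min it stood at 39.3, 39.2 and 41.8 CPM in hM3Dq libraries, against 45.3, 42.2 and 48.3 CPM in EGFP libraries, a log2 fold change of -0.17 ± 0.10 (adjusted p = 0.752). The rM3Ds libraries held 41.8 to 43.6 CPM and the hM4Di libraries 42.4 to 55.0 CPM, and both overlapped EGFP. At 3 days Mxi1 stood at 58.1, 57.3 and 55.4 CPM in hM3Dq libraries, against 66.7, 67.0 and 72.9 CPM in mCherry libraries. The 2 groups did not overlap, and the log2 fold change of -0.28 ± 0.08 had an unadjusted p of 0.0113 and an adjusted p of 0.294. Without mCherry replicate 3 it was -0.23 and called (adjusted p = 0.0226). The counts of members whose libraries did not overlap their control were 1 above and 2 below of 7 for hM3Dq at 90 min, against 8.26% of all genes above and 6.5% below. They were 2 above for rM3Ds, against 3.9%, and 1 above and 1 below for hM4Di, against 4.05% and 4.47%. At 3 days 3 of 6 members lay below, against 13% of genes.

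Mxd4 and Mnt, the antagonists with an E-box in the windows above, were called in none of the 8 comparisons either. Mxd4 stood at 152, 126 and 133 CPM in hM3Dq libraries, at 157, 177 and 189 CPM in rM3Ds libraries and at 147, 153 and 165 CPM in hM4Di libraries, against 188, 153 and 148 CPM in EGFP libraries. Each receptor group overlapped EGFP, and hM3Dq over EGFP had a log2 fold change of -0.25 ± 0.12 (unadjusted p = 0.0521, adjusted p = 0.632). Without EGFP replicate 1 it was -0.14. For hM4Di over EGFP it was -0.07, and 0.03 without the 3 libraries that stood apart. hM3Dq over rM3Ds was -0.35 ± 0.12 on the log2 scale (unadjusted p = 0.0119, adjusted p = 0.224). In that comparison 14.2% of genes had an unadjusted p below 0.05. rM3Ds replicates 2 and 3, at 177 and 189 CPM, are among the libraries that stood apart. At 3 days Mxd4 averaged 193 ± 11.3 CPM in hM3Dq cells and 176 ± 12.01 CPM in mCherry cells (SD, n = 3 each), with a log2 fold change of 0.13 ± 0.09. Mnt, the broadly expressed antagonist, averaged 81.2 ± 9.04 CPM in hM3Dq cells, 83.2 ± 5.95 CPM in rM3Ds cells, 85.2 ± 6.98 CPM in hM4Di cells and 82.7 ± 17.0 CPM in EGFP cells (SD, n = 3 each). EGFP replicate 1, at 63.3 CPM, was the lowest of these libraries, and the other 2 EGFP libraries held 94.9 and 89.8 CPM. Mnt had log2 fold changes of -0.03, 0.01 and 0.04 for hM3Dq, rM3Ds and hM4Di, and their signs turned when single libraries were left out. Without the 3 libraries that stood apart they were -0.19, -0.14 and -0.13. At 3 days Mnt had -0.09 for hM3Dq over mCherry.

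Mxd3, the member tied to S phase, was high in 3 libraries from 2 groups. It had 13, 8 and 11 counts in hM3Dq libraries, 6, 87 and 71 in rM3Ds libraries and 39, 47 and 20 in hM4Di libraries, against 163, 13 and 9 in EGFP libraries. The 3 high libraries, EGFP replicate 1 at 7.71 CPM and rM3Ds replicates 2 and 3 at 4.82 and 4.42 CPM, are those that stood apart, and the other 9 held 0.342 to 2.03 CPM. The same 3 libraries had the highest median deviation of 20 cell cycle genes from each gene's mean. It was 2.00, 1.29 and 1.25 on the log2 scale. In the other 9 libraries that median ran from -0.95 to 0.50. The log2 fold change of Mxd3 over EGFP was -2.28 ± 1.08 for hM3Dq, 0.08 ± 0.97 for rM3Ds and -0.96 ± 0.99 for hM4Di, none called. Without the 3 libraries these values were -0.05, -0.88 and 1.27. The rM3Ds value then rests on replicate 1 and its 6 counts. At 3 days Mxd3 had 5, 10 and 7 counts in hM3Dq libraries, against 5, 3 and 12 in mCherry libraries, and did not pass the filter on low counts. The part of cell division in the values of the other members was not tested.

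**Figure D3:**
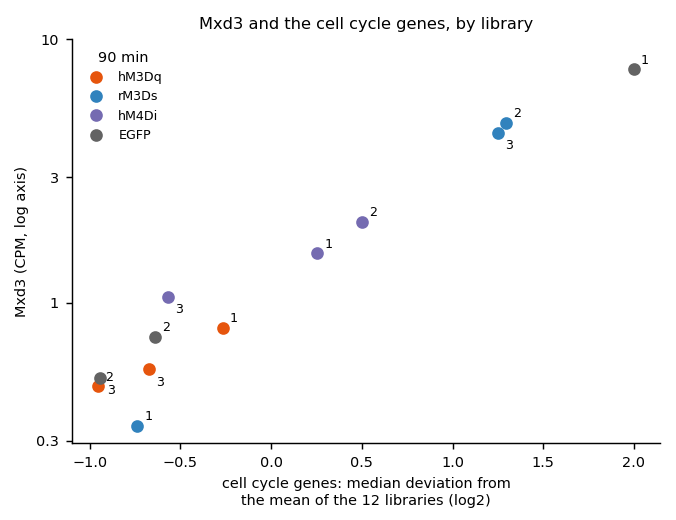
Mxd3 level (CPM, y axis, log scale) against the median log2 deviation of 20 cell cycle genes from each gene's mean (x axis), 1 point for each of 12 libraries at 90 min, coloured by group and numbered by replicate. EGFP replicate 1 (7.71 CPM) and rM3Ds replicates 2 and 3 (4.82 and 4.42 CPM) lie at the upper right, and the other 9 libraries lie at or below 2.03 CPM.

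The balance of Myc to its antagonists was taken as a ratio of counts within a library, which no scaling between libraries can move. Myc to Mxd1 was 2.29 ± 0.16 in hM3Dq cells, 1.04 ± 0.0997 in rM3Ds cells and 1.28 ± 0.171 in hM4Di cells, against 0.711 ± 0.0639 in EGFP cells (SD, n = 3 each). Libraries of each receptor lay above all EGFP libraries, and those of hM3Dq, at 2.11 to 2.43, lay above all others. At 3 days the ratio was 0.741 ± 0.0461 in hM3Dq cells and 0.745 ± 0.0817 in mCherry cells. Against all 5 antagonists, Myc held 13.8 ± 1.5 counts per 100 antagonist counts in hM3Dq cells, 7.24 ± 0.703 in rM3Ds cells and 7.35 ± 1.48 in hM4Di cells, against 4.71 ± 0.602 in EGFP cells. The highest EGFP library reached 5.33 and the lowest receptor library 6.43, so the groups did not overlap. At 3 days it was 3.93 ± 0.133 in hM3Dq cells (3.78 to 4.01), against 4.68 ± 0.291 in mCherry cells (4.40 to 4.98), and the hM3Dq libraries were the lower. These ratios reuse the counts tested above and are a description, with no test of their own.

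**Figure D4:**
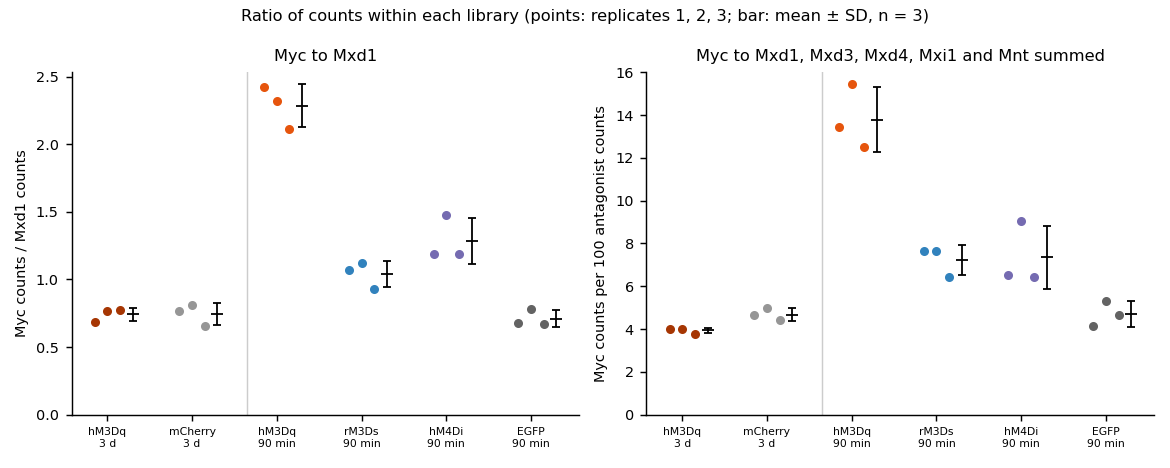
Myc counts per Mxd1 count and per 100 counts of the 5 antagonists (y axes) in every library by group (x axis), with bars for the mean ± SD of 3. The hM3Dq libraries at 90 min are the highest on both scales, at 2.11 to 2.43 and 12.5 to 15.4.

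Levels of different members were compared only as CPM per kb of the longest annotated coding transcript. In hM3Dq cells at 90 min the order was Max at 53.4, Mxd4 at 35.4, Mnt at 17.7, Myc at 16.3, Mxi1 at 7.97, Mxd1 at 3.56 and Mxd3 at 0.465 CPM per kb. In EGFP cells it was Max at 53.5, Mxd4 at 42.1, Mnt at 18.01, Mxi1 at 8.99, Myc at 6.34, Mxd1 at 4.46 and Mxd3 at 2.25 CPM per kb. Myc thus stood above Mxi1 in cells of each receptor at 90 min and below it in EGFP cells and in both 3-day groups. With hM4Di, Myc and Mxi1 did not differ beyond their spread (9.59 ± 1.58 and 9.34 ± 1.38 CPM per kb), and Myc to Mxi1 counts ran from 0.363 to 0.629. With hM3Dq, Myc and Mnt were close (16.3 ± 2.04 and 17.7 ± 1.97 CPM per kb). There Myc to Mnt counts held at 0.462 to 0.479 within libraries, so the spread of each gene does not test their order. Which transcripts the astrocytes used was not measured, and another transcript length would shift these levels.

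Across the 12 libraries at 90 min, genes whose log2 CPM was among the most like that of Myc, out of 11906 candidates, were Sgk1 (r = 0.94) and Emd (r = 0.93). Sgk1 encodes a kinase induced by serum and Emd the nuclear envelope protein emerin. Without the 3 libraries that stood apart r was 0.95 and 0.91. Over all 18 libraries, centred within each table, Sgk1, Fos and the cytokine gene Lif came first, with r of 0.90, 0.90 and 0.89. Mxd1 was most like Pdgfra (r = 0.95), a receptor of the oligodendrocyte and fibroblast lineages. Mxd3 was most like Tpx2, a spindle gene (r = 0.99; 0.95 over the other 9 libraries), Rrm2, a subunit of ribonucleotide reductase, and Pbk, a mitotic kinase. Among the members, r with Myc was -0.62 for Mxi1, -0.54 for Mxd4, -0.49 for Mxd1, -0.35 for Mxd3, -0.03 for Max and 0.06 for Mnt. Without the 3 libraries it was -0.67 for Mxi1, -0.54 for Mxd4, -0.62 for Mxd1, -0.10 for Mxd3, -0.64 for Max and -0.48 for Mnt. Mxd3 and Mxd4 had r = 0.80, which was 0.33 without them. These libraries share groups and depth, and the values are descriptions.

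Textbook targets of Myc were read from a list of 30 growth genes, of ribosome production, nucleotide and polyamine synthesis and metabolism. For hM3Dq over EGFP at 90 min edgeR called 0 of the 30, against 0.788% of all genes, and DESeq2 called 1. An unadjusted p below 0.05 was held by 7 of the 30, against 7.94% of all genes. Of the 30, 86.7% had a log2 fold change above 0, against 49% of all genes tested, and the median was 0.14, against -0.00 for all genes. Nolc1, a nucleolar phosphoprotein, had the smallest p and averaged 70.8 ± 1.69 CPM in hM3Dq cells and 55.9 ± 3.32 CPM in EGFP cells (SD, n = 3 each), a log2 fold change of 0.34 ± 0.08 (adjusted p = 0.0929). Rrs1 and Nop58, both needed to build ribosomes, had log2 fold changes of 0.29 (adjusted p = 0.302) and 0.29 (adjusted p = 0.355), while Ncl, nucleolin, had 0.00. Without the 3 libraries that stood apart, an alternative added after the data were seen, the list's median was 0.15. The same 30 genes had a median of -0.02 for rM3Ds over EGFP and 0.08 for hM4Di over EGFP (0.02 without the 3 libraries), and -0.01 for hM3Dq over mCherry at 3 days. Of the 30, edgeR and DESeq2 called 0 in each of these 3 comparisons, and 1, 0 and 4 had an unadjusted p below 0.05, against 4.23%, 5.48% and 12% of all genes. The share above 0 was 40% for rM3Ds (45.5% of all genes), 73.3% for hM4Di (47.9%) and 46.7% for hM3Dq at 3 days (48.8%). For hM4Di, 22 of 30 were above 0 with all 12 libraries and 18 of 30 without the 3 that stood apart. For hM3Dq over EGFP at 90 min these counts were 26 and 28.

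Of 6 genes that Myc is known to repress, 1 was called, in 2 comparisons between receptors in which 0.67% and 0.802% of all genes were called. Gadd45a, a stress-induced inhibitor of growth, averaged 29.1 ± 0.785 CPM in hM3Dq cells, 46.2 ± 3.51 CPM in rM3Ds cells and 43.7 ± 1.97 CPM in hM4Di cells, against 36.3 ± 3.28 CPM in EGFP cells (SD, n = 3 each). It was lower in hM3Dq cells than in rM3Ds cells by -0.67 ± 0.09 on the log2 scale (adjusted p = 0.00559) and than in hM4Di cells by -0.59 ± 0.09 (adjusted p = 0.0119). Over EGFP its log2 fold change was -0.32 ± 0.09 for hM3Dq (adjusted p = 0.23), 0.35 ± 0.09 for rM3Ds (adjusted p = 0.562) and 0.27 ± 0.09 for hM4Di (adjusted p = 0.833), none called. Cdkn2b, the p15 inhibitor of cyclin-dependent kinases, averaged 75.1 ± 3.99 CPM in hM3Dq cells and 63.4 ± 2.73 CPM in EGFP cells (SD, n = 3 each). All 3 hM3Dq libraries lay above all 3 EGFP libraries, a log2 fold change of 0.25 ± 0.10 (unadjusted p = 0.0328, adjusted p = 0.579). Gadd45a and Cdkn2b were the 2 of 6 with an unadjusted p below 0.05 for hM3Dq over EGFP, against 7.94% of all genes. Cdkn1a, the p21 inhibitor of cyclin-dependent kinases, averaged 329 CPM in both hM3Dq and EGFP cells, with a log2 fold change of -0.00.

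Lists of genes that act on the Myc protein or work with it held no called gene against a control. For hM3Dq over EGFP at 90 min edgeR and DESeq2 called 0 of 16 genes of Myc turnover, 0 of 18 coactivators and corepressors and 0 of 6 genes of the wider network, and 1, 1 and 0 had an unadjusted p below 0.05, against 7.94% of all genes. The median log2 fold changes were 0.03, 0.03 and -0.11, against -0.00 for all genes. Usp36, a nucleolar deubiquitinase of Myc, had 0.33 ± 0.13 (adjusted p = 0.561), and Sap30, of the Sin3 complex, had -0.35 ± 0.15 (adjusted p = 0.605). Mycl, a paralog of Myc, averaged 2.76 CPM in hM3Dq cells and 2.10 CPM in EGFP cells. At 3 days the turnover list had a median of -0.19, against -0.01 for all genes, and edgeR and DESeq2 called 0 of 16, while 3 had an unadjusted p below 0.05, against 12% of all genes. The smallest p there was that of Usp28, a deubiquitinase that stabilises Myc, at -0.44 ± 0.14 (adjusted p = 0.307).

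**Figure D5:**
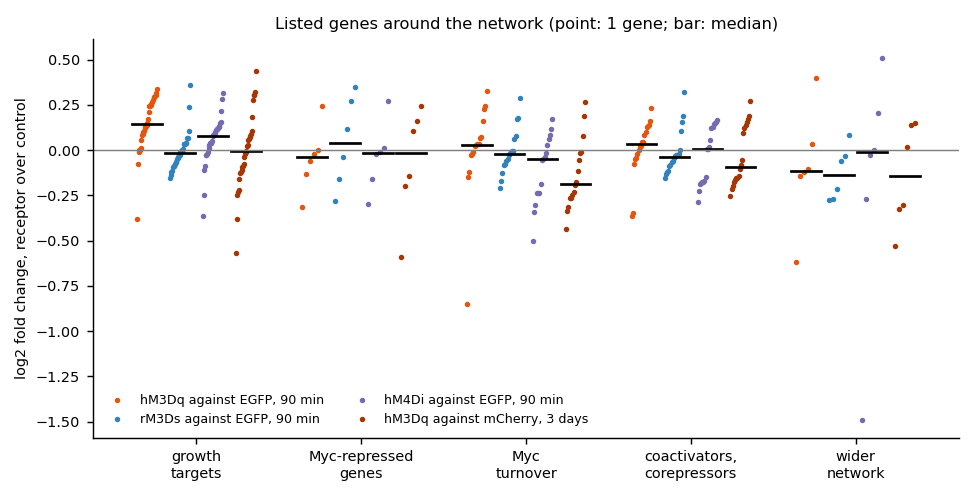
Log2 fold change of the genes of each list (points) with the list's median (bar), receptor over its control (y axis), for 3 receptors at 90 min and hM3Dq at 3 days; the grey line marks 0. The median of the 30 growth targets is 0.14 for hM3Dq at 90 min, against -0.02 for rM3Ds, 0.08 for hM4Di and -0.01 for hM3Dq at 3 days.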

How the data were processed

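Poly-A RNA of 18 libraries was sequenced, per the labels. Salmon 1.8.0, fastp 0.23.4 and build mm39 appear in the submitters' processing notes. The authors deposited unnormalised estimated counts, with 12 libraries of 90 min in one table and 6 of 3 days in another. The step from transcripts to genes is not given in the sources used here. Values that were not whole (55.9% and 30.5%) were rounded. Symbols matched 21978 of 22078 Entrez identifiers.

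Tests used edgeR 4.0.16 in R 4.3.3 (quasi-likelihood, robust, TMM, default filter), over 12 libraries (13584 genes, 8 residual degrees of freedom), 6 libraries (12807 genes, 4) and an interaction over 12 (13391 genes, 8). SE is the fold change divided by the root of F, and intervals are 95%. P-values were adjusted by Benjamini-Hochberg over all genes tested, with calls below 0.05. All tests were two-sided. The fits were tested on simulated counts first. Floors of 3 counts cover counting error only. Libraries of a group differed beyond sampling noise, so none was merged. The labels do not say what a shared replicate number marks. Deviations from group means of same-numbered hM3Dq and EGFP libraries at 90 min correlated at 0.13, 0.16 and 0.12, against -0.17 to 0.04 for other pairs, so the block's effect on that comparison is given with it.

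The members and gene lists were chosen with earlier results of these data known. Genes beyond the members were named by smallest p within a list, or as the 3 most alike by Pearson's r at a mean log2 CPM of at least 1 (prior count 2), of which 1 is not reported here. Ncl, Cdkn1a, Cdkn2b, Mycl and Fos were named as familiar examples, after their values were seen. Alternatives were no filter, edgeR with size factors of the DESeq2 kind, and the Wald test of DESeq2 1.42.0. Further ones were fits of 2 groups, a replicate block, each library left out, and the 3 libraries that stood apart left out.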

Additional observations from a re-analysis of the deposited data

Results flagged for a closer look

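The effect of hM3Dq on Myc differed between the times. It was -0.26 on the log2 scale at 3 days against mCherry and 1.36 at 90 min against EGFP, and the interaction test gave a difference of -1.61 ± 0.18 (adjusted p = 0.000936). All 3 hM3Dq libraries were below all 3 mCherry libraries at 3 days and above all 3 EGFP libraries at 90 min. No group has more than 3 libraries, so single outlying values were not tested for.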

How the results depend on the processing

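The call of Myc for hM3Dq over EGFP and the call of its interaction held under each alternative run. With the DESeq2 Wald test, genes called were 232 for hM3Dq over EGFP, against 107 in edgeR, 56 for rM3Ds over EGFP (2), 35 for hM4Di over EGFP (0), 463 for hM3Dq over rM3Ds (91), 420 for hM3Dq over hM4Di (109), 205 for rM3Ds over hM4Di (2), 156 at 3 days (0) and 202 for the interaction (53). DESeq2 called 1 member for rM3Ds over EGFP, 1 for hM4Di over EGFP, 2 for hM3Dq over rM3Ds and 1 for rM3Ds over hM4Di. With no filter 1 gene was called at 3 days, and 1 member for hM3Dq over rM3Ds. Fits of 2 groups called 0 genes for rM3Ds over EGFP, 138 for hM3Dq over rM3Ds and 0 for rM3Ds over hM4Di, with 1 member for hM3Dq over rM3Ds and 0 for hM3Dq over hM4Di.

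Over the 4 groups at 90 min the replicate numbers did not pair the libraries: deviations of same-numbered libraries correlated at -0.76 to 0.37, although the 3 pairs of hM3Dq and EGFP taken alone correlated at 0.12 to 0.16. At 3 days they correlated at 0.022 to 0.041, and each library correlated best with its own number, a hint from the data and not from the design. The replicate block gave 66 called genes for hM3Dq over EGFP, 4 for rM3Ds over EGFP, 53 for hM3Dq over rM3Ds with 1 member, Myc (adjusted p = 0.0334), 61 for hM3Dq over hM4Di and 0 for rM3Ds over hM4Di.

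Without the 3 libraries that stood apart, genes called were 0 for rM3Ds over EGFP, 25 for hM3Dq over rM3Ds, 300 for hM3Dq over hM4Di and 0 for rM3Ds over hM4Di. Log2 fold changes that turned were those of Mxd3 (-0.88), Max (-0.0274) and Mnt (-0.14) for rM3Ds over EGFP, Mxd3 (1.27), Mxd4 (0.0291), Max (-0.0171) and Mnt (-0.13) for hM4Di over EGFP, and Mxd3 for hM3Dq over rM3Ds (0.83) and rM3Ds over hM4Di (-2.15). The cause of these shifts was not tested.

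Leaving out 1 library at a time, genes called ranged from 50 to 103 for hM3Dq over EGFP, 2 to 115 for rM3Ds over EGFP, 28 to 590 for hM3Dq over rM3Ds, 38 to 106 for hM3Dq over hM4Di, 0 to 392 for rM3Ds over hM4Di, 0 to 1257 at 3 days and 28 to 170 for the interaction (30, 30 and 29 without hM3Dq replicate 1, 2 or 3 of the 3-day libraries). Members called ranged from 0 to 2 for hM3Dq over rM3Ds, 0 to 1 for hM3Dq over hM4Di and 0 to 2 at 3 days. Fold changes that turned ranged, for hM3Dq over EGFP, from -0.0622 to 0.0375 for Max and -0.19 to 0.0904 for Mnt. For rM3Ds over EGFP they ranged from -0.41 to 2.33 for Mxd3, -0.0017 to 0.0852 for Max and -0.14 to 0.13 for Mnt. For hM4Di over EGFP they ranged from -1.46 to 1.298 for Mxd3, -0.14 to 0.0577 for Mxd4, -0.10 to 0.18 for Mnt and -0.0853 to 0.15 for Mxi1. Between receptors they ranged from -0.10 to 0.0531 for Mnt in hM3Dq over rM3Ds, -0.15 to 0.01004 for Mnt in hM3Dq over hM4Di, and, in rM3Ds over hM4Di, -0.0425 to 0.0293 for Max, -0.11 to 0.0304 for Mnt and -0.00027 to 0.19 for Myc. They ranged from -0.0565 to 0.19 for Max at 3 days, and from -0.0477 to 0.18 for Max and -0.17 to 0.11 for Mnt in the interaction (Mnt 0.00298 without mCherry replicate 1). Mxd3 had the fewest counts of the 7 members, 3 to 163 a library.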
